A study of Homo sapiens with 6 samples.

Results

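The genes described here encode the machinery that moves proteins and RNA through the nuclear pore: exportins, importins, the RAN cycle that drives them, and nucleoporins, the building blocks of the pore. Members were the rows of the count table whose NCBI symbol was on a list of 53 nuclear transport genes. All 53 were found among the 28307 genes of the table, and all 53 passed the filter on low counts, which left 12938 genes for testing. They fell into 7 exportins, 4 genes of the RAN cycle, 5 importin alphas, 11 members of the importin beta family and 26 nucleoporins.

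The cells were of the human leukaemia line OCI-AML3, derived from acute myeloid leukaemia, in which 1 NPM1 allele is mutant and the other wild type. Mutant nucleophosmin (NPM1c) has gained a nuclear export signal, is carried out of the nucleus by the exportin XPO1 and accumulates in the cytoplasm. Cells received either a control siRNA (siControl, 3 libraries) or an siRNA directed at the mutant transcript (siNPM1c, 3 libraries), both with a lipid reagent at 10 nM, and total RNA was taken on day 3. The labels give the genotype of all 6 libraries as WT, although the line is known for its NPM1 mutation, and 1 batch for all of them. Untransfected cells were not analysed here. The labels do not say that replicates came from separate cultures, so the p-values rest on the spread among these libraries alone, and that spread may be technical. In bulk RNA, fewer cells of a kind and less RNA per cell cannot be told apart.

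Transport receptors bind their cargo on one side of the pore and release it on the other. The direction is set by RAN, a small GTPase that is bound to GTP in the nucleus, where RCC1 loads it, and to GDP in the cytoplasm, where RANGAP1 triggers hydrolysis. Importins let go of cargo when they meet RAN-GTP, and exportins need RAN-GTP to hold theirs. The pore itself is a ring of stacked scaffold complexes anchored in the nuclear envelope, with a channel lined by flexible nucleoporins to which the receptors bind.

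Total counts ran from 15075235 to 25190122 per library, of which the 53 genes together took 17843 to 42815. Ribosomal RNA made up 63.8% ± 0.753 (SD, n = 3) of the siControl counts and 70.2% ± 0.813 of the siNPM1c counts, and levels are therefore given as CPM (counts scaled to a common library size) with library sizes adjusted by TMM, a scaling that treats most genes as unchanged. NPM1, the targeted gene (Entrez gene 4869, chromosome 5, 171387116 to 171411137 on GRCh38), had counts of 922, 1366 and 922 after the control siRNA and of 293, 500 and 350 after siNPM1c. Its log2 fold change was -1.10 ± 0.05 (SE), 2.15-fold lower, with both alleles counted together. Markers of the myeloid lineage, 8 of 8 tested, summed to 457 to 468 CPM in the siControl and 883 to 890 CPM in the siNPM1c libraries. Most of that difference was LYZ, the gene of lysozyme, at 80.2 ± 0.805 (SD, n = 3) and 401 ± 8.35 CPM, and the other 7 summed to 378 to 387 CPM in the siControl and 479.9 to 491 CPM in the siNPM1c libraries. In the same test 6 of the 8 were higher, and CD33 and ITGAM were not called. Markers of T cells, B cells, erythroid cells, megakaryocytes and stroma summed to at most 5.20 CPM per list in any library, and CD3D, HBB, HBG1, PF4 and GP9 had no count in any of them. The part that the difference in myeloid markers has in the results below was not tested.

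Most nuclear transport genes were lower after siNPM1c. Of the 53 genes, 38 were lower and 3 higher at an adjusted p under 0.05 in the quasi-likelihood test of edgeR, adjusted over all tested genes by the method of Benjamini and Hochberg, and 12 were not called. Over all 12938 tested genes 42.7% were called, 21.4% lower and 21.3% higher, against 71.7% and 5.66% of the transport genes. Well-expressed genes gave a similar background: of protein-coding genes that averaged 5 CPM or more, 24.7% were lower, against 32 of the 45 transport genes at that level. The median log2 fold change of the 53 genes was -0.32, and that of all tested genes was -0.01. Most changes were small: 10 of the 53 genes were called lower with a fold of at least 1.5, as were 6.99% of all tested genes, and only NDC1 was called with a 2-fold or larger fall.

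The direction was alike in the 3 siNPM1c libraries. The median of the 53 genes lay -0.29, -0.33 and -0.30 log2 from the siControl mean in siNPM1c libraries 1, 2 and 3, and 46, 46 and 43 of the genes lay below that mean. In siControl libraries 1, 2 and 3 the median lay -0.024, 0.003 and 0.029 from it, with 36, 24 and 19 genes below. In 38 of the 53 genes (71.7%) every siNPM1c library lay below every siControl library, an order that 24.9% of all tested genes showed. As a share of all protein-coding counts, which no scaling between libraries enters, the 53 genes took 0.640% ± 0.00736 (SD, n = 3) in the siControl and 0.524% ± 0.00128 in the siNPM1c libraries, without overlap.

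**Figure D1:**
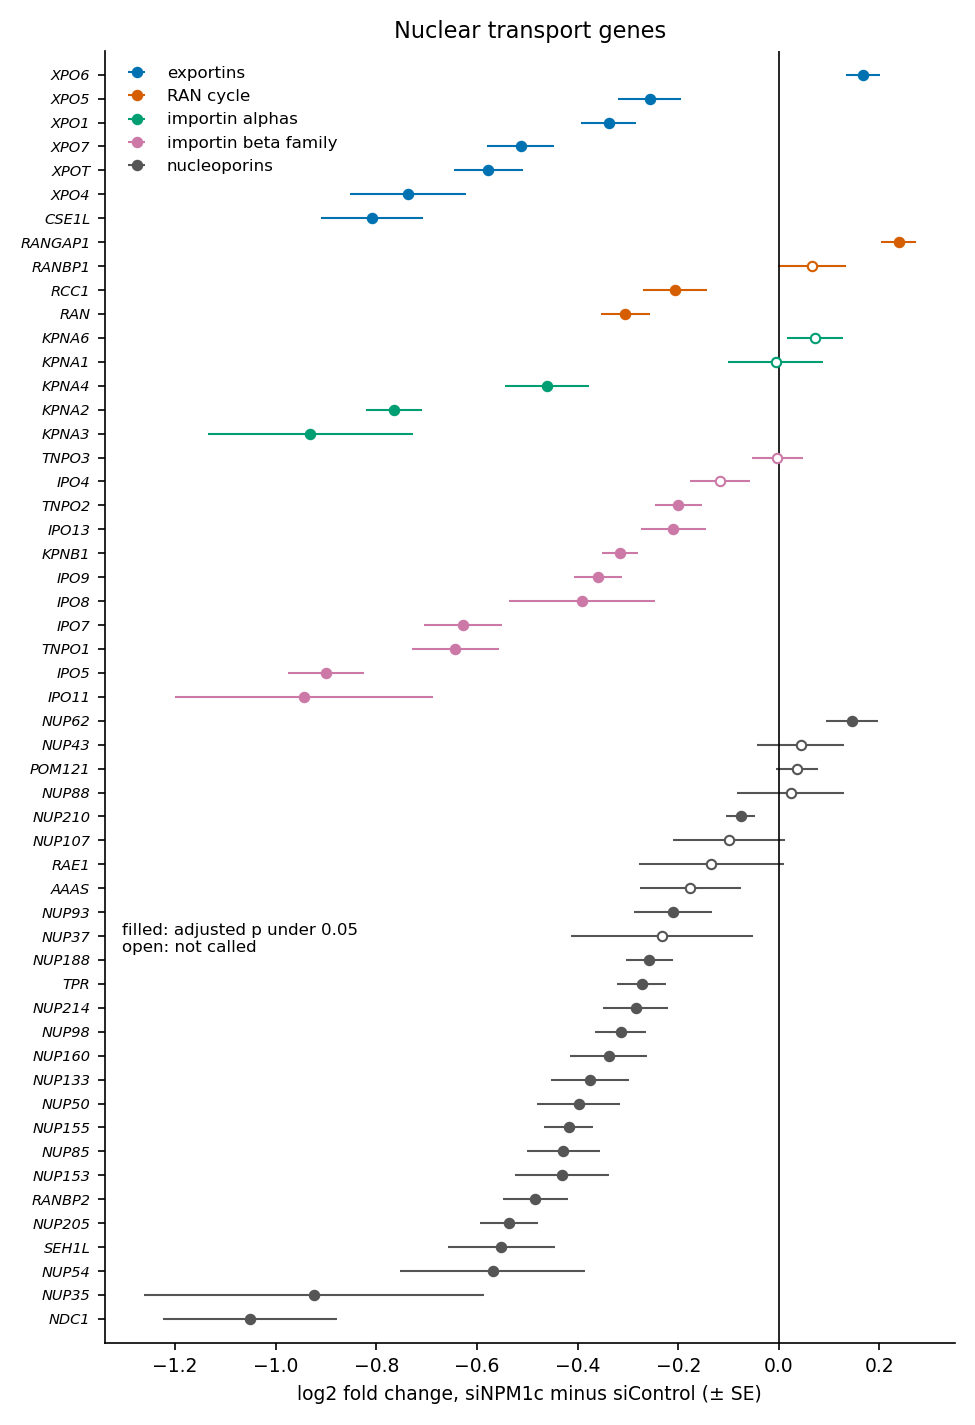
The log2 fold change of each of the 53 genes (x axis, siNPM1c minus siControl, bars ± SE) is drawn by class, filled where the adjusted p was under 0.05. Filled points to the right of 0 are XPO6, RANGAP1 and NUP62, and the 38 filled points to the left reach from -0.08 for NUP210 to -1.05 for NDC1.

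Promoter sequences were read from RefSeq (GRCh38.p14), which had an entry for 48 of the 53 genes. The 250 bases before the first listed start were searched on both strands for short motifs. The GC box GGGCGG was found in 26 of 48 windows (54.2%) and in 67.4% of the windows of 9593 tested protein-coding genes. The ETS motif CCGGAAG was found in 29.2% against 16.6%, the CCAAT box CCAAT in 39.6% against 35.2%, the E-box CACGTG in 14.6% against 9.08%, the NRF1 core GCATGCGC in 10.4% against 4.97% and TATAAA in 4.17% against 5.49%. The E2F motif TTTCCCGC was in none of the 48 windows and in 2.25% of the others. These are matches of letters and no measured sites. Among the 38 called genes with an entry, 4 had a window free of exons annotated in GENCODE 29, and these are shown because they hold XPO6 and RANGAP1, which rose, beside NUP205 and NUP210, which fell. The fall of NUP210 was small (log2 fold change -0.08), and its call was lost in DESeq2 and without some single libraries. All 4 windows are printed 5′ to 3′ on the gene's strand, with GC boxes of either strand in capitals.
XPO6 (chr16:28211966-28212215, minus strand): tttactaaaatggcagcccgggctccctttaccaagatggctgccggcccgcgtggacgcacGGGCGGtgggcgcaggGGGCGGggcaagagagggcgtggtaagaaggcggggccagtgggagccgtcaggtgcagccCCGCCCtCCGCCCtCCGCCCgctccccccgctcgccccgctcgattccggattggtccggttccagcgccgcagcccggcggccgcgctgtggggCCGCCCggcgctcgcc
RANGAP1 (chr22:41302370-41302619, minus strand): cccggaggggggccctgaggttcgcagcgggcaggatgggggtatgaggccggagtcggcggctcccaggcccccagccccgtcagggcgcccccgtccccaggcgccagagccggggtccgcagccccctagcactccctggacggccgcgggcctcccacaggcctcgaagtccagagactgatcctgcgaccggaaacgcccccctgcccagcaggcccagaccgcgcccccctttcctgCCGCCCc
NUP205 (chr7:135557667-135557916, plus strand): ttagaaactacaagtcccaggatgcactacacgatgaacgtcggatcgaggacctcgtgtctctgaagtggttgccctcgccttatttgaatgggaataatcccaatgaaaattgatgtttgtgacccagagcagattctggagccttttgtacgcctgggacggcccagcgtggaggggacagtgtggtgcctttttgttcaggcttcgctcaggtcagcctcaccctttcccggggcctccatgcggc
NUP210 (chr3:13420323-13420572, minus strand): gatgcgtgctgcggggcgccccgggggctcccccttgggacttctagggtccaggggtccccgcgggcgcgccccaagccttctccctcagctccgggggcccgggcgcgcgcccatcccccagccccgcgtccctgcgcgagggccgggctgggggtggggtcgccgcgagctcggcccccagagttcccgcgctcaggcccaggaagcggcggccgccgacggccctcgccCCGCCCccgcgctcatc
The XPO6 window had 6 GC boxes and the NUP205 window none, with 1 each in the RANGAP1 and NUP210 windows. GC content was 75.2% in the XPO6, 76.4% in the RANGAP1, 80.8% in the NUP210 and 54.0% in the NUP205 window. RefSeq's first RANGAP1 start lies upstream of the GENCODE 29 gene (chromosome 22, 41245611 to 41286251).

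Of the 7 exportins, 6 fell and XPO6 rose. XPO1 (CRM1; chromosome 2, 61477849 to 61538626), the main receptor for leucine-rich export signals and the one that carries NPM1c out of the nucleus, was at 37.4, 36.1 and 39.1 CPM in the siControl libraries and at 28.3, 29.7 and 30.6 CPM in the siNPM1c libraries. The groups did not overlap. XPO1 was 1.26-fold lower, which is a log2 fold change of -0.34 ± 0.05 (SE; adjusted p = 3.00e-08). After the dependence on GC content was removed library by library (GC correction), its log2 fold change was -0.08 and the call was lost (adjusted p = 0.270).

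CSE1L, the exportin that returns importin alpha to the cytoplasm after import, changed most among the exportins. It was at 14.1, 12.4 and 11.4 CPM against 5.64, 7.57 and 8.10 CPM, a 1.75-fold difference (log2 fold change -0.81 ± 0.10, adjusted p = 1.63e-12). XPO4, which exports the translation factor eIF5A, fell from 9.16 ± 0.755 (SD, n = 3) to 5.55 ± 0.327 CPM, 1.67-fold. XPOT, the tRNA exportin, fell 1.49-fold and XPO7, a receptor with broad cargo, 1.43-fold. XPO5, which exports microRNA precursors, fell by a log2 fold change of -0.26 ± 0.06 (adjusted p = 2.71e-04). GC correction moved the log2 fold change of XPO4 from -0.74 to -0.48 and that of XPOT from -0.58 to -0.38, and both stayed called.

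XPO6, the exportin of actin and profilin (chromosome 16, 28097979 to 28211920), was the exception. Its levels were 83.0, 84.8 and 84.2 CPM in the siControl and 91.7, 94.1 and 97.3 CPM in the siNPM1c libraries. All 3 siNPM1c libraries were above all siControl libraries, with a log2 fold change of 0.17 ± 0.03 (SE; adjusted p = 1.29e-05). XPO6 was also the most abundant exportin per length, at 11.9 CPM per kilobase of exon in the siControl libraries against 3.21 for XPO1, and the class as a whole summed to 222 ± 3.48 CPM in the siControl and 195 ± 5.45 CPM in the siNPM1c libraries. With library sizes alone the log2 fold change of XPO6 was -0.30.

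**Figure D2:**
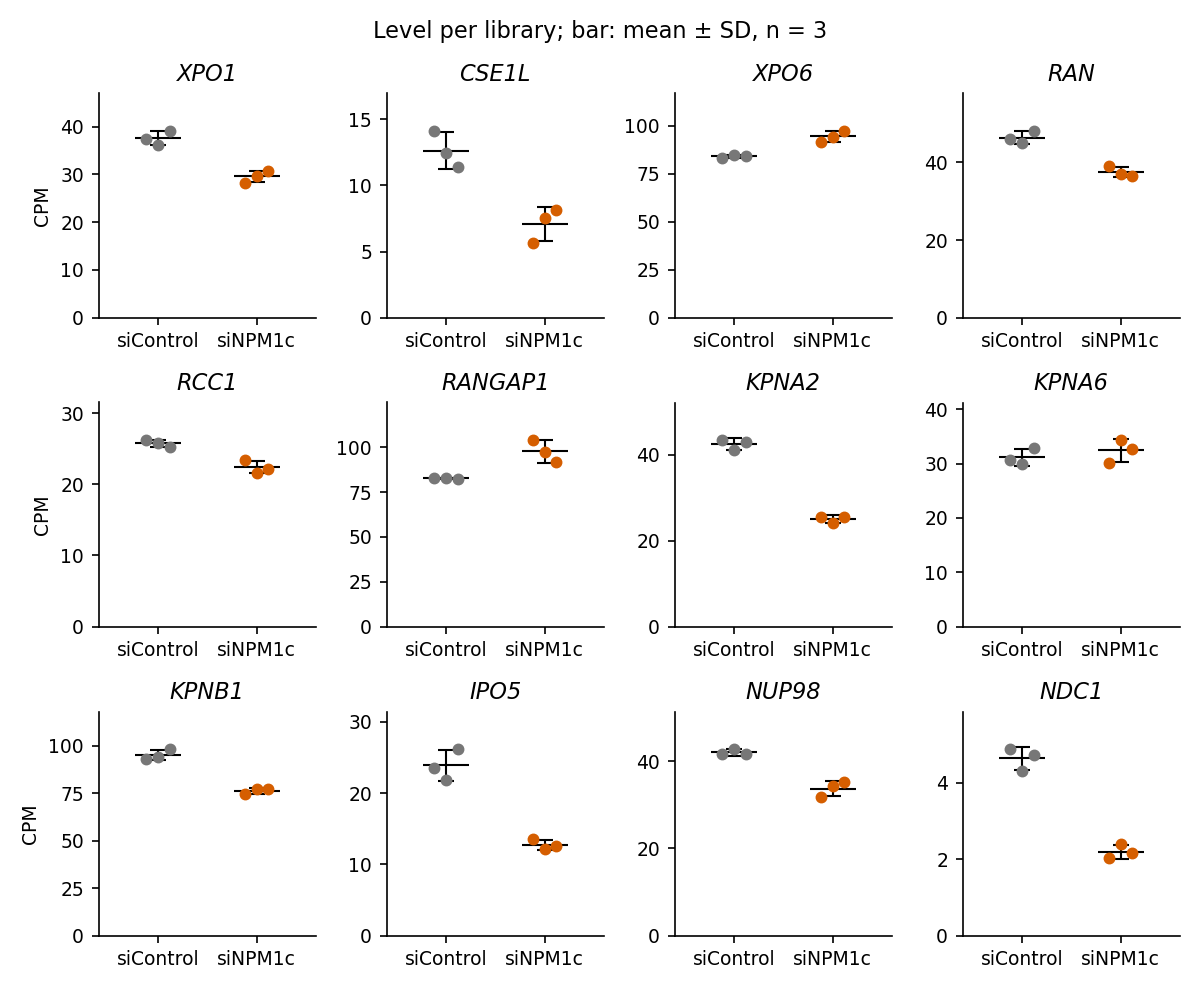
Levels in CPM (y axis, from 0) of 12 genes in each siControl (grey) and siNPM1c (orange) library, with mean ± SD over 3 libraries. The groups are separate for 11 of the genes and overlap for KPNA6, and only XPO6 and RANGAP1 are higher after siNPM1c among those that separate.

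The RAN cycle was divided. RAN itself was at 46.0, 45 and 48.1 CPM in the siControl and at 39.0, 37.0 and 36.5 CPM in the siNPM1c libraries, 1.24-fold lower (log2 fold change -0.31 ± 0.05, adjusted p = 2.32e-08). RCC1, the exchange factor on chromatin, was at 26.2, 25.8 and 25.2 against 23.4, 21.7 and 22.2 CPM. Its groups were close but did not overlap, and its log2 fold change was -0.21 ± 0.06 (adjusted p = 4.96e-03). Without siNPM1c library 2 the RCC1 call was lost (-0.17, adjusted p = 0.0645), as it was in DESeq2 (adjusted p = 0.0537).

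RANGAP1, the GTPase activator held at the cytoplasmic side of the pore by RANBP2, moved the other way. Its levels were 83.1, 82.7 and 82.4 CPM in the siControl and 104, 97.5 and 91.6 CPM in the siNPM1c libraries, with a log2 fold change of 0.24 ± 0.03 (adjusted p = 7.60e-10). The siControl libraries were nearly level with each other, and the siNPM1c libraries spread more widely above them. RANBP1, which assists RANGAP1, was not called: its log2 fold change was 0.07, with a 95% interval from -0.07 to 0.20. The 4 genes together summed to 176 ± 1.41 CPM against 179 ± 8.13 CPM, with overlap. With library sizes alone the log2 fold change of RANGAP1 was -0.23.

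Of the 5 importin alphas, the adaptors that recognise classical nuclear localisation signals, 3 fell and 2 were not called. KPNA2 (chromosome 17, 68035519 to 68046842), which is most abundant in dividing cells, was at 43.4, 41.0 and 43.0 CPM in the siControl and at 25.4, 24 and 25.6 CPM in the siNPM1c libraries. The distance between the groups was many times the spread within them. KPNA2 was 1.70-fold lower (log2 fold change -0.76 ± 0.06), and its adjusted p of 4.48e-30 was the smallest of the 53 genes. KPNA3 fell 1.91-fold from a low level, 3.15 ± 0.586 to 1.70 ± 0.291 CPM, and KPNA4 fell from 16.4 ± 1.28 to 11.9 ± 1.12 CPM. With GC correction the log2 fold change of KPNA4 was -0.24 in place of -0.46, still called.

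KPNA1 and KPNA6, singled out after their values were seen, did not pass the test. KPNA6 was at 30.6, 30.0 and 32.9 CPM in the siControl and at 30.1, 34.3 and 32.8 CPM in the siNPM1c libraries, with a 95% interval of the log2 fold change from -0.04 to 0.18. KPNA1 had an interval from -0.19 to 0.18. These intervals leave out a fall of the size seen in KPNA2.

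The makeup of the importin alpha class therefore differed between the groups, and this can be read without any scaling between libraries. Of all importin alpha counts per exonic kilobase, KPNA2 took 63.1% ± 1.65 (SD, n = 3) in the siControl and 52.3% ± 1.6 in the siNPM1c libraries. KPNA6 took 19.4% ± 0.570 and 28.4% ± 1.86, and KPNA1 took 6.0% ± 0.925 and 8.56% ± 0.581. None of these 3 shares overlapped between the groups, while those of KPNA3 and KPNA4 did. The count of KPNA2 divided by that of KPNA6 was 1.42, 1.37 and 1.31 with the control siRNA against 0.845, 0.700 and 0.781 with siNPM1c, so that KPNA2 had more counts than KPNA6 in each siControl library and fewer in each siNPM1c library.

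Shares shifted in other classes too. Among the exportins XPO6 went from 39.9% ± 0.136 to 51.4% ± 0.171 of the counts per exonic kilobase, and XPO1 went from 10.8% ± 0.439 to 9.71% ± 0.137. The count of XPO1 divided by that of XPO6 was 0.451, 0.426 and 0.464 against 0.308, 0.316 and 0.315. In the RAN cycle, RANGAP1 took 42.7% ± 0.303 and 50.02% ± 1.03, and the RAN to RANGAP1 ratio was 0.554, 0.544 and 0.584 against 0.375, 0.379 and 0.399. None of these values overlapped between groups. The ratio of XPO1 to KPNB1, the main export and import receptors, did overlap, at 0.401, 0.384 and 0.397 against 0.380, 0.386 and 0.395. These ratios were chosen with the values known and are descriptions without a test. Neither shares nor ratios were corrected for GC content, which was 37.9% for XPO1, 50.7% for XPO6, 46.4% for RAN and 57.6% for RANGAP1. With GC correction the log2 fold changes were -0.08 for XPO1, 0.17 for XPO6, -0.23 for RAN and 0.17 for RANGAP1.

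**Figure D3:**
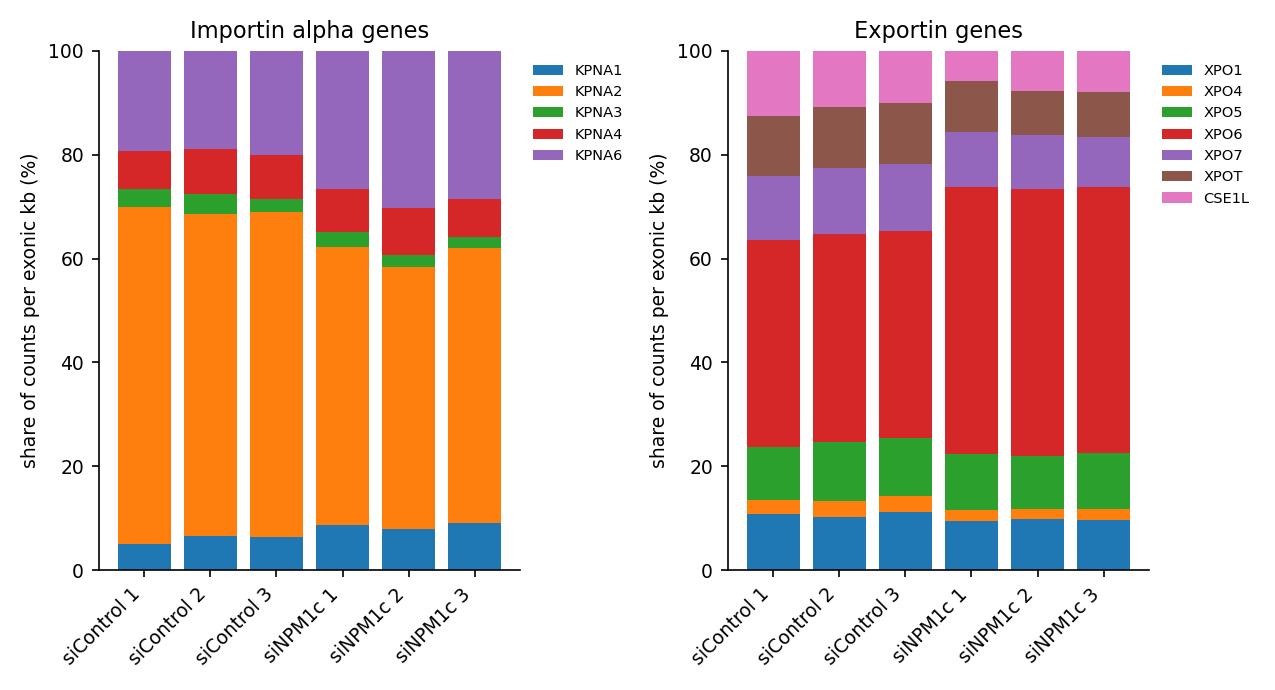
Share of each gene (y axis, % of the class's counts per exonic kilobase) in every library for the importin alphas (left) and the exportins (right). The KPNA2 band shrinks from a mean of 63.1% to 52.3% while the KPNA6 band widens, and XPO6 takes 51.4% of the exportin counts after siNPM1c.

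In the importin beta family 9 of 11 genes fell and none rose. KPNB1 (importin beta 1; chromosome 17, 47649476 to 47685505), which carries importin alpha with its cargo through the pore, was at 93.3, 93.9 and 98.5 CPM in the siControl and at 74.5, 77.1 and 77.4 CPM in the siNPM1c libraries. It was 1.24-fold lower (log2 fold change -0.32 ± 0.04, adjusted p = 2.25e-15). It was also the family's most abundant gene per length, at 12.4 CPM per exonic kilobase in the siControl and 9.94 in the siNPM1c libraries. Summed over the 11 genes, the family stood at 354 ± 5.26 CPM (SD, n = 3) in the siControl and at 287 ± 2.82 CPM in the siNPM1c libraries, without overlap.

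IPO5 (chromosome 13, 97953658 to 98024297), an import receptor for ribosomal proteins and histones, had the clearest fall in the family. Its levels were 23.6, 21.9 and 26.2 CPM against 13.5, 12.2 and 12.6 CPM. It was 1.87-fold lower, with a log2 fold change of -0.90 ± 0.08 (adjusted p = 5.00e-24). IPO7, which takes part in import of ribosomal proteins and linker histones, fell 1.54-fold from 20.04 ± 1.17 to 13.0 ± 0.262 CPM. TNPO1, an import receptor for hnRNP A1, fell 1.56-fold from 16.1 ± 1.16 to 10.4 ± 0.466 CPM. IPO11 fell 1.92-fold at a level near the floor of the table, 2.06, 1.63 and 2.58 CPM against 0.978, 1.2 and 0.946 CPM, and its SE of 0.26 was correspondingly wide. Exons of KIF2A and LRRC70 cover 22.6% of the exonic bases of IPO11 on the same strand.

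The remaining calls in the family were smaller. IPO9, a histone importer, had a log2 fold change of -0.36 ± 0.05, TNPO2, a close relative of TNPO1, one of -0.20 ± 0.05, and IPO13, which carries cargo in both directions, one of -0.21 ± 0.07. IPO8 was at 5.17, 5.58 and 5.28 against 4.97, 3.11 and 4.59 CPM, and its call (-0.39, adjusted p = 0.0207) depended on single libraries. Without siNPM1c library 2 its log2 fold change was -0.16 (adjusted p = 0.457), without siControl library 2 it was -0.35 (adjusted p = 0.0797), and with GC correction it was -0.22 (adjusted p = 0.231). GC correction moved IPO7 from -0.63 to -0.39, still called. The 2 family members that were not called were IPO4 and TNPO3, with log2 fold changes of -0.12 and -0.00. IPO4 was called lower with GC correction (-0.20, adjusted p = 0.00355), but another gene's exons cover 69.3% of its exonic bases on the same strand.

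Of the 26 nucleoporins, 18 fell, 1 rose and 7 were not called, with a median log2 fold change of -0.30. Their sum was 696 ± 5.01 CPM (SD, n = 3) in the siControl and 599 ± 7.12 CPM in the siNPM1c libraries, and the groups did not overlap. The parts of the pore differed in how many of their genes were called lower, from all 5 of the inner ring and all 3 of the nuclear basket to 2 of 4 at the membrane and on the cytoplasmic face. Whether these parts differ from each other was not tested.

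The inner ring, which links the outer rings to the membrane and anchors the channel, fell with all 5 of its genes, and its sum went from 154 ± 1.41 to 119 ± 5.93 CPM. NUP205 (chromosome 7, 135557919 to 135648757) was at 36.0, 34.6 and 38.2 against 24.7, 25.4 and 24.4 CPM, 1.45-fold lower (log2 fold change -0.54 ± 0.06, adjusted p = 2.30e-16). NUP155 was at 49.1, 49.4 and 49.3 against 33.4, 38.7 and 37.8 CPM, with a log2 fold change of -0.42 ± 0.05. Both sets of libraries were well apart. NUP188, the paralogue of NUP205, had a log2 fold change of -0.26 ± 0.05.

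The other inner ring calls were less secure. NUP93, the hub of the ring, had a log2 fold change of -0.21 ± 0.08 (adjusted p = 0.0211) and lost its call without siControl library 1 (-0.16, adjusted p = 0.139) or siNPM1c library 1 (-0.16, adjusted p = 0.147). NUP35 was at 0.945, 1.12 and 1.29 against 0.301, 0.814 and 0.540 CPM, the lowest level of the 53 genes. Its call (-0.92 ± 0.34, adjusted p = 0.0191) was lost without siControl library 3 (-0.83, adjusted p = 0.0751), siNPM1c library 1 (-0.67, adjusted p = 0.141) or siNPM1c library 3 (-0.87, adjusted p = 0.0595), and with GC correction (adjusted p = 0.0501). GC correction also moved NUP155 to -0.25, still called.

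The Y complex forms the outer scaffold rings of the pore, and 4 of its 7 genes fell. SEH1L, which also belongs to a nutrient-sensing complex, fell 1.47-fold from 10.2 ± 0.740 (SD, n = 3) to 6.96 ± 0.346 CPM. NUP85 had a log2 fold change of -0.43 ± 0.07, NUP133 one of -0.38 ± 0.08 and NUP160 one of -0.34 ± 0.08. GC correction moved NUP133 to -0.23 and NUP160 to -0.20, both still called. The remaining 3 genes, NUP37, NUP43 and NUP107, were not called, with log2 fold changes from -0.23 to 0.04.

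In the central channel, whose flexible repeats bind transport receptors, 2 of the 3 genes fell and NUP62 rose. NUP98 (chromosome 11, 3671083 to 3797792), a recurrent fusion partner in acute myeloid leukaemia, was at 41.6, 42.8 and 41.6 against 31.8, 34.3 and 35.1 CPM. Its log2 fold change was -0.31 ± 0.05 (adjusted p = 3.95e-08), 1.24-fold lower. NUP54 was at a low level, 3.49 ± 0.336 against 2.38 ± 0.318 CPM, and its call (-0.57 ± 0.18, adjusted p = 7.03e-03) was lost without siNPM1c library 2 (-0.43, adjusted p = 0.101) and with GC correction (-0.41, adjusted p = 0.0642).

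NUP62, which forms the channel's core complex with NUP54, was at 34.9, 34.7 and 37.3 CPM in the siControl and at 38.4, 41.0 and 38.2 CPM in the siNPM1c libraries. The groups were separate by a narrow margin, with a log2 fold change of 0.15 ± 0.05 (adjusted p = 0.0146). The call was lost without siControl library 2 (0.12, adjusted p = 0.0821) or siNPM1c library 2 (0.11, adjusted p = 0.146), with GC correction (0.08, adjusted p = 0.208) and without a filter on low counts (0.12, adjusted p = 0.0687), and with library sizes alone the value was -0.33. Exons of ATF5, IL4I1 and AC011452.1 cover 12% of the exonic bases of NUP62 on its own strand and 10.4% on the other.

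On the cytoplasmic face, 2 of 4 genes fell. RANBP2, the filament protein that binds RAN and RANGAP1, was at 28.2, 27.2 and 27.2 against 20.2, 18.6 and 20.5 CPM, 1.40-fold lower (log2 fold change -0.48 ± 0.07, adjusted p = 2.88e-11). NUP214, another leukaemia fusion partner and a docking site for XPO1, was at 26.3, 25.2 and 27.2 against 22.6, 21.7 and 20.1 CPM (log2 fold change -0.28 ± 0.06, adjusted p = 8.81e-05). The libraries of both genes separated by group. NUP88, the partner of NUP214, and RAE1, which acts in mRNA export, were not called. RANBP2 shares sequence with the RGPD genes, which together had 478 counts against 2724 for RANBP2 over the 6 libraries, and GC correction moved RANBP2 to -0.25, still called.

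The nuclear basket, the filaments on the inner side of the pore, fell with all 3 genes. NUP153, which anchors the basket, had a log2 fold change of -0.43 ± 0.09, and NUP50, a cofactor of importin release, one of -0.40 ± 0.08. TPR, the basket's main filament, was at 45.1, 48.4 and 44.2 against 39.0, 38.5 and 37.0 CPM (log2 fold change -0.27 ± 0.05, adjusted p = 5.77e-07). The groups of TPR did not overlap, but with GC correction its value was -0.06 and the call was lost (adjusted p = 0.307).

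At the membrane ring, which ties the pore to the nuclear envelope, the 4 genes differed widely. NDC1 (chromosome 1, 53765460 to 53838860) had the largest fold change of the 53 genes. It was at 4.89, 4.31 and 4.74 CPM in the siControl and at 2.03, 2.40 and 2.16 CPM in the siNPM1c libraries, 2.07-fold lower (log2 fold change -1.05 ± 0.17, adjusted p = 4.50e-08). NUP210 was at 156, 150 and 151 against 148, 145 and 140 CPM. In the siControl libraries it was the most abundant member per length, at 18.6 CPM per exonic kilobase. In the siNPM1c libraries it was at 17.7, below RANGAP1 at 18.3.

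The change in NUP210 was the smallest of the calls (log2 fold change -0.08 ± 0.03, adjusted p = 0.0206). It was lost without siControl library 1 (-0.06, adjusted p = 0.110), siNPM1c library 2 (-0.08, adjusted p = 0.0659) or siNPM1c library 3 (-0.05, adjusted p = 0.189), and GC correction made it -0.15 (adjusted p = 2.29e-07). POM121, which shares sequence with POM121C, and AAAS were not called, with log2 fold changes of 0.04 and -0.18.

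The changes varied with the base composition of the transcripts. The 53 genes had a median GC content of 46.0%, below the 50.9% of all tested genes. When tested genes were divided into 5 bins of equal size by GC content, the share called lower went from 35.5% in the bin of lowest GC content (32.0% to 42.9%) to 12.2% in the highest, and the bin's median log2 fold change from -0.22 to 0.09. In the lowest bin 15 of 17 transport genes were called lower, with a median of -0.48. In the next bin (27.1% of all genes lower, median -0.09) it was 11 of 15, with a median of -0.43. In the middle bin (19.4% of all genes lower, median -0.01) it was 8 of 11, with a median of -0.26. In the bin above it (54.0% to 59.5%), where 14.9% of all genes were lower, 4 of 9 were lower and 2 higher. Their median was -0.08 against 0.07 for all genes, and the last bin held only IPO4. The share of all genes called higher was not worked out by bin.

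**Figure D4:**
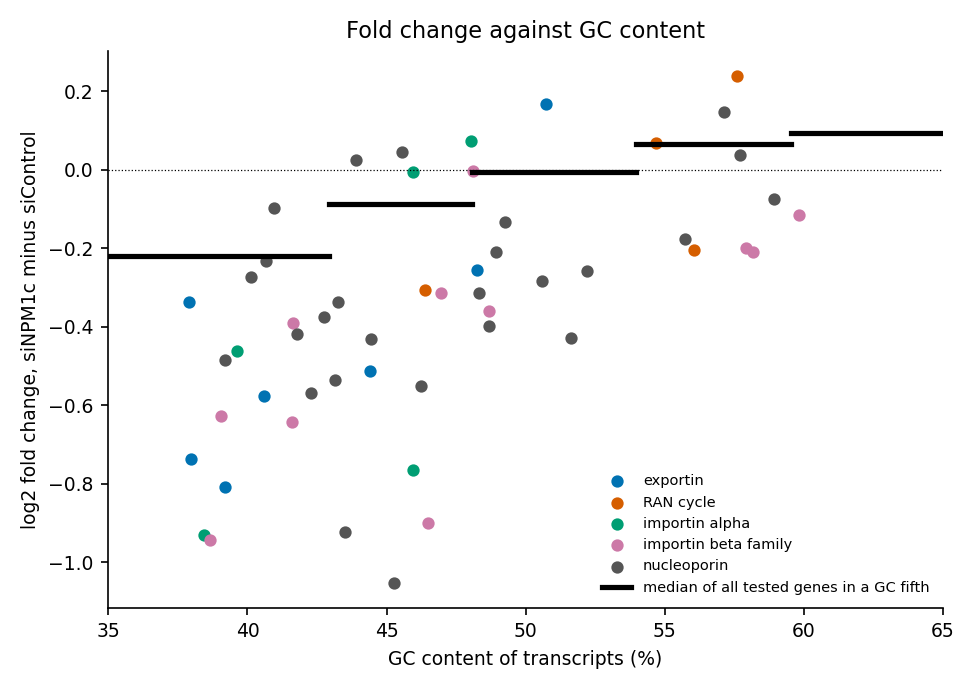
Log2 fold change (y axis) against the GC content of the transcripts (x axis, %) for the 53 genes, with black bars at the median of all tested genes in each of 5 bins of GC content. The genes with GC content under 48.1% mostly lie below the bars, whose own level goes from -0.22 to 0.09.

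With the GC trend removed from each library, 34 of the 53 genes were lower and 2 higher, against 19.2% and 20.7% of all tested genes, and the median log2 fold change of the 53 was -0.25. Of the 38 genes called lower before, 33 kept the call. By class, 5 of 7 exportins, 2 of 4 RAN cycle genes, 3 of 5 importin alphas, 9 of 11 of the importin beta family and 15 of 26 nucleoporins were lower. With library sizes alone, where ribosomal RNA, larger in the siNPM1c libraries, enters the depth, all 53 were lower with a median of -0.79. The median gene of the table stood at -0.48 there, and 71.5% of genes were called lower. The part that ribosomal RNA has in this shift was not tested.

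**Figure D5:**
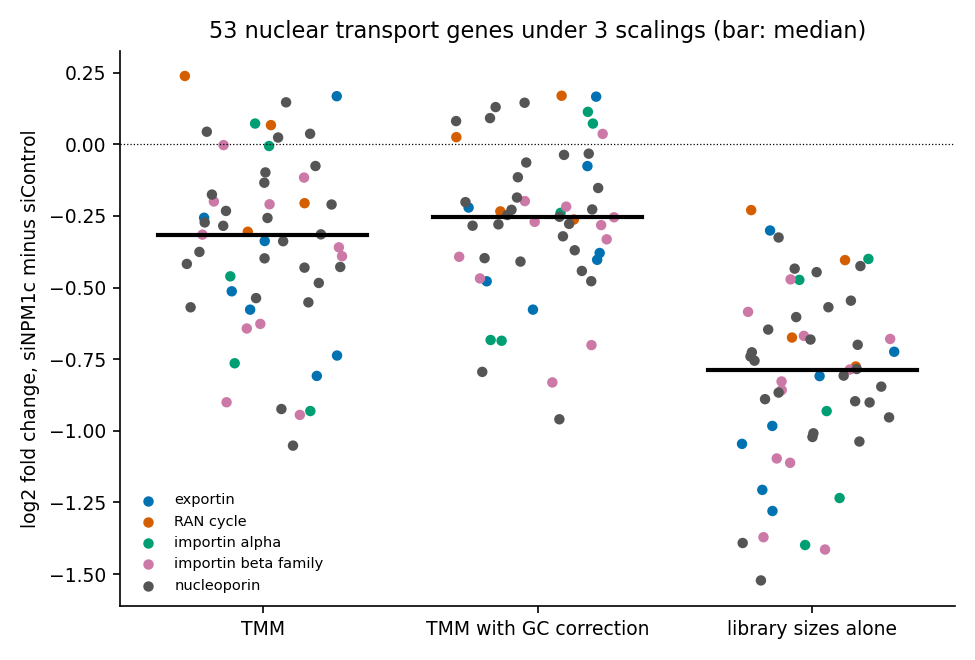
Log2 fold change (y axis) of the 53 genes under TMM, TMM with GC correction and library sizes alone, with black bars at the medians of -0.32, -0.25 and -0.79. Points above 0 include XPO6, RANGAP1 and NUP62 in the first column, and no point lies above 0 in the last.

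Other genes of the pathway, listed by role, had a smaller median change. Of 45 such genes 39 were tested, of which 15 were lower, 1 higher and 23 not called, with a median log2 fold change of -0.11, where 21.4% of all tested genes were lower and 21.3% higher. The count of 15 became 8 without siNPM1c library 2 and 9 in DESeq2. Among other genes of the pore and the RAN cycle 6 of 13 were lower, with AHCTF1 (ELYS), which seeds pore assembly on chromatin, at -0.53 ± 0.07 (adjusted p = 3.50e-13). Among genes of mRNA and snRNA export 7 of 22 were lower and 1 higher, with a median of -0.01. ZC3H11A, an mRNA export factor, had a log2 fold change of -0.41 ± 0.05 (adjusted p = 1.68e-15), although exons of ZBED6 cover 93.6% of its exonic bases on the same strand. THOC2, the scaffold of the TREX complex, had one of -0.50 ± 0.11 (adjusted p = 4.01e-05). DDX19A, a pore-bound RNA helicase, was the 1 gene that rose, from 9.78 ± 0.405 to 12 ± 0.725 CPM (SD, n = 3; 0.29 ± 0.09, adjusted p = 6.10e-03), and it was at -0.18 with library sizes alone. GC correction moved AHCTF1 to -0.33 and ZC3H11A to -0.23, both still called, and THOC2 to -0.25 (adjusted p = 0.0525). Of 4 ribosome export adaptors 2 were lower.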

How the data were processed

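The authors deposited raw counts per gene for 6 libraries, whole numbers keyed by Entrez identifiers. Per the submitters' processing notes, the tools were STAR 2.7.5a, cutadapt 2.6, DESeq2 1.34.0 and CASAVA 1.8, and the builds were mm10 and hg38, with no roles stated; the counting tool, its strand setting and its treatment of reads that fit several places are not given in the sources used here. In all, 14 members have pseudogenes named after them in RefSeq. Over the 6 libraries those of IPO5 had 73 counts and those of NUP210 had 5. No counts were found under the names of the others, and whether each of them has a row in the count table was not checked. Reads of members and their pseudogenes, of overlapping genes and of antisense genes could be split between them.

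Symbols came from RefSeq gene tables, with 28261 of 28307 identifiers matched. Within groups the libraries differed by a chi-square per degree of freedom of 1.46 to 2.36, above sampling noise, so none was taken for a copy of another. Counts were filtered (filterByExpr, minimum count 10), scaled by TMM and tested with edgeR 4.0.16 (glmQLFit, robust = TRUE; R 4.3.3), two-sided, adjusted over 12938 genes. The standard error is the log2 fold change divided by the root of the test's F value, and the biological coefficient of variation common to all genes was 2.17%. CPM values use the TMM-adjusted library size. GC content, exon lengths and coordinates are from GENCODE 29 (GRCh38), and all 53 members had a GC value.

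The members and lists were chosen with earlier results of these data known. Named were NPM1, every member called at an adjusted p under 0.05 and, of the other pathway genes, up to 3 of smallest adjusted p in each direction. Members that were not called are given by counts and range, and those of them named with values were singled out after their values were seen. Those not tested among the 45 others included NUP62CL, RANBP17, KPNA7, RANGRF and DDX39B. The 17 alternatives comprised other size factors, library sizes alone, filters, DESeq2 1.42.0, limma-voom (limma 3.58.1), a replicate block, a GC correction (lowess, span 0.3) and leaving out each library. The scripts were tested on simulated counts.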

Additional observations from a re-analysis of the deposited data

How the results depend on the processing

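Of the 38 genes called lower, 30 kept their direction and call in each of the 17 alternatives that tested them, and of the 3 called higher XPO6 and RANGAP1 did in 16, all but library sizes alone, where the median gene of the table stood at -0.48. With library sizes alone 9253 genes of the table were lower and 505 higher, and among the 53 genes none was higher, the median was -0.79, and all 4 RAN cycle genes and all 5 importin alphas were lower; among the other pathway genes 36 were lower and 0 higher. XPO6 (-0.30), RANGAP1 (-0.23), NUP62 (-0.33) and DDX19A (-0.18) turned sign there. The median of the 53 was -0.34 without a filter on low counts and -0.25 with GC correction, under which 3 other pathway genes were higher. DESeq2 called 1754 genes of the table lower (2766 in edgeR), which is 13.6% of those tested, and 16.1% higher. Of the 53 genes it called 32 lower and 2 higher, with 1 RAN cycle gene lower, and it called 9 other pathway genes lower. It did not call RCC1, IPO8, NUP35, NUP93, NUP54, NUP62 and NUP210 (adjusted p = 0.0537, 0.153, 0.102, 0.114, 0.0598, 0.0869 and 0.140), at log2 fold changes of -0.20, -0.36, -0.96, -0.21, -0.56, 0.15 and -0.07. The cause of these differences was not tested.

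Leaving out each library in turn gave 34 to 37 genes lower and 2 to 3 higher among the 53, with a median of -0.33 to -0.29. Of all tested genes 16.6% to 19.4% were then lower and 18.4% to 20.1% higher. In these fits 1 to 2 RAN cycle genes were lower, and among other pathway genes 8 to 15 were lower and 1 to 3 higher. Replicate numbers did not pair the libraries (correlations of 0.0193, -0.00266 and -0.00408 for same-numbered libraries). With the replicate block 38 of the 53 genes were lower and 3 higher, against 21.6% of all tested genes in each direction. Counts of about 1 CPM, as for NUP35 and IPO11, limit the precision of those genes most.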
